A study of Mus musculus with 6 samples.

Results

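The CELF and RBFOX genes encode 2 families of RNA-binding proteins, and the regions listed for them in a genome-wide comparison of DNA methylation between liver tumors and normal livers are described here. All lines of the deposited region table whose nearest gene was Celf1, Celf2, Celf3, Celf4, Celf5, Celf6, Rbfox1, Rbfox2 or Rbfox3 were taken, whatever their difference. That gave 47 of the 14176 regions of the table, 26 for CELF genes and 21 for RBFOX genes. The families were chosen by the count of large losses at Celf4, so that count is given as a description and supports nothing further. The assay was reduced representation bisulfite sequencing (RRBS), in which DNA is cut at CCGG by MspI and bisulfite turns unmethylated cytosine into a base that is read as T. The 6 samples were 3 liver tumors carrying a Ha-ras mutation and 3 normal livers, all from male C3H/HeN mice aged 74 weeks, an inbred strain prone to spontaneous liver tumors. It is not stated whether tumors and normal livers shared mice. The table holds 1 value per region, the mean difference in percent methylation, tumor minus normal, in percentage points, and lists only regions that differed by at least 20 points in either direction. A negative value is called a loss in tumors and a positive value a gain. A region of 30 points or more, the threshold of the study, is called a differentially methylated region (DMR), and a DMR with a loss is a hypo-DMR. Since no value per sample and no read depth came with the table, the spread between mice is unknown, and no test between tumor and normal livers was run. The samples were pieces of whole tissue, so a change in methylation within cells and a change in the mixture of cells cannot be told apart.

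CELF proteins (CUGBP Elav-like family) bind GU-rich elements in RNA through RNA recognition motifs and act on alternative splicing in the nucleus and on translation and mRNA decay in the cytoplasm. RBFOX proteins carry a single RNA recognition motif, bind the element UGCAUG next to alternative exons, and favor inclusion or skipping of the exon according to the side on which they sit. Celf1, Celf2 and Rbfox2 are active in many tissues, whereas Celf3, Celf4, Celf5, Rbfox1 and Rbfox3 are known mainly from the nervous system, with Rbfox1 also in muscle and heart, and Celf6 has been studied mostly in brain. Several of these genes are very long and have many alternative starts, so the distance of a region depends on the start from which it is measured. Loss of methylation over gene-poor sequence is a common feature of tumor genomes.

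Among the regions on which the results turn, 5 are shown as the plus strand of GRCm38 (mm10). Every whole CpG, the dinucleotide in which methylation was measured, is in capitals. The largest loss outside Celf4 (-37.1 points, Rbfox3, intron 1) is shown with the gain at the same gene (28.3 points, intron 2), the gain at Celf3 (24.3 points), and the largest losses at Rbfox1 (-29.3 points) and Celf2 (-28.3 points). The Celf3 and Celf2 stretches stop before bases that are untranslated in a RefSeq transcript, so they give 224 of 269 bp and 109 of 137 bp of their regions.
Rbfox3 loss, chr11:118853522-118853688: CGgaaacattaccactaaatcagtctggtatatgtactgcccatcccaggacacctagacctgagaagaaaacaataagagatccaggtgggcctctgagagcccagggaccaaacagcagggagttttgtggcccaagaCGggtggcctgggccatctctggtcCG
Rbfox3 gain, chr11:118725609-118725751: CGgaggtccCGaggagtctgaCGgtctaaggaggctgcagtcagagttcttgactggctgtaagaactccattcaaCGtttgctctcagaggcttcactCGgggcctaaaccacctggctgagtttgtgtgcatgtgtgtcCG
Celf3 gain, chr3:94489375-94489598: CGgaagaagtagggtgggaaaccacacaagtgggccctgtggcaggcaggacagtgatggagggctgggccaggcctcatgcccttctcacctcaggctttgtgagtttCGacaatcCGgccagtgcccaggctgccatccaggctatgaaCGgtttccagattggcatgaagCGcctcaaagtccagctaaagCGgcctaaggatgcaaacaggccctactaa
Rbfox1 loss, chr16:6687012-6687270: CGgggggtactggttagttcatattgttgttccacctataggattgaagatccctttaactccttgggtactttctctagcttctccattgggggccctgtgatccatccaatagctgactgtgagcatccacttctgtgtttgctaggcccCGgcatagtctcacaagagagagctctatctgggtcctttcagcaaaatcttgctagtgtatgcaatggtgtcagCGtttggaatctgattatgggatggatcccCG
Celf2 loss, chr2:6721308-6721416: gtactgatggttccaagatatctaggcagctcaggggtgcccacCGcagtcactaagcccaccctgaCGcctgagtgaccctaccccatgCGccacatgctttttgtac
The loss at Rbfox3 holds 3 CpGs in 167 bp, and the gain at the same gene holds 6 in 143 bp. The stretch at Celf3 holds 6 CpGs in 224 bp, the region at Rbfox1 4 in 259 bp, and the stretch at Celf2 3 whole CpGs in 109 bp. The first base of the Celf2 stretch is the G of a further CpG, whose C lies just before it. The Rbfox1 sequence is covered by repeats in full (100.0% soft-masked), and the loss at Rbfox3 is free of them (0.0%). Both shown gains begin with the CGG that MspI leaves at a cut end, as do the losses at Rbfox3 and Rbfox1.

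Of the 47 regions, 44 were losses and 3 were gains. The losses made up 93.6% of the regions, against 85.1% of all regions of the table. The exact 95% interval, 82.5 to 98.7%, holds counting error only and treats the regions as independent. As 18 were listed for Celf4 and 16 for Rbfox3, they may not be, so no test is read from it. Large differences were not frequent in the set. DMRs were 8 of the 47 regions (17.0%), against 23.5% of the table. All 8 were hypo-DMRs, and the share of hypo-DMRs in the table was 18.0%. There was no gain of 30 points or more among the members, against 5.57% of the table. The median difference was -23.9 points in the set and -23.9 points in the table. These shares and medians lie near the background and are not a result about the CELF and RBFOX genes. The 3 genes Celf1, Celf6 and Rbfox2 had no region listed, while Celf4 had 18, Rbfox3 16, Celf2 6, Rbfox1 5, Celf3 1 and Celf5 1. For comparison, the table names 6741 nearest genes with a median of 1 region each, and 21 genes have 15 regions or more. Only 4 genes were listed with more regions than Celf4, and 11 with more than Rbfox3.

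**Figure D1:**
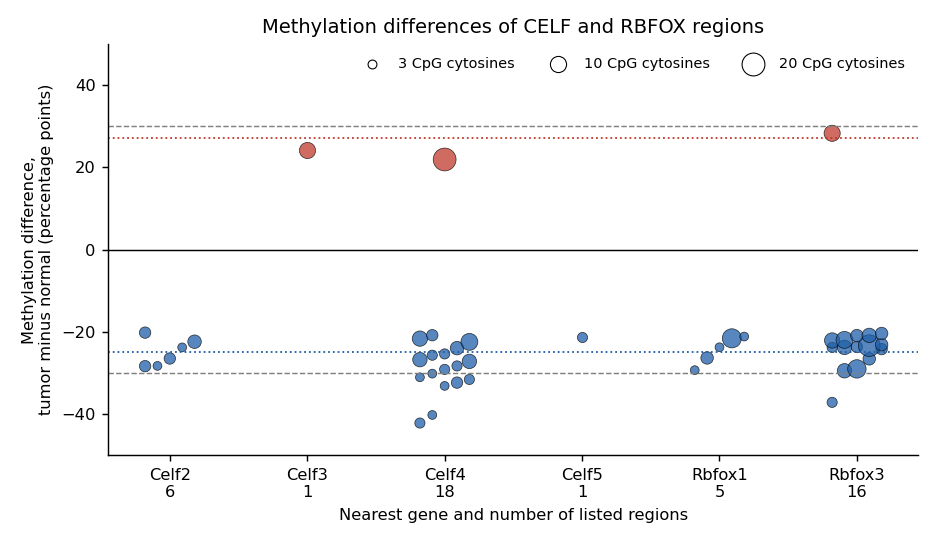
Methylation difference (tumor minus normal, percentage points) of each of the 47 regions by nearest gene, with circle area in proportion to the number of CpG cytosines measured. Blue is a loss and red a gain, dashed lines mark 30 points in each direction, and dotted lines mark the median loss and the median gain of the whole table. Celf4 holds 7 of the 8 points beyond the dashed lines, all of them small circles, and the 3 gains are among the larger circles.

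Celf4, a CELF protein best known from excitatory neurons, had the most regions and the largest differences. Of its 18 regions, 17 were losses and 1 was a gain, and 7 were hypo-DMRs (38.9%, against 18.0% of the table). No gene of the table had more hypo-DMRs, and 1 other gene had as many. This is the count by which the family was chosen. At the threshold, the smallest hypo-DMR of Celf4 was -30.1 points and the largest Celf4 loss that missed it was -29.1 points. The listed regions spanned 1344 kb, from chr18:25478389 to chr18:26822629, a stretch that holds no other protein-coding gene. The gene itself covers 276.9 kb on the minus strand (chr18:25477620-25754520).

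The regions of Celf4 fell into 8 within the gene and 10 upstream of it. The 8 within the gene comprised 7 losses and 1 gain, and only 1 of them was a DMR. That region, with -40.2 points from 3 CpG cytosines, all 3 of them differentially methylated cytosines (DMCs), lay in intron 3 (chr18:25518610-25518678), 235 kb from the listed transcription start site (TSS). The other 6 losses within the gene lay in introns 1 and 2, at -20.8 to -28.3 points. The gain of 21.9 points lay at the other end of the gene, in the 3′ UTR of the last exon, exon 13 of 13 (chr18:25478389-25478494). It was the region with the most CpG cytosines of the whole set, 20, of which 6 were DMCs.

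All 10 upstream regions of Celf4 were losses (85.1% of the table), and 6 were hypo-DMRs (18.0% of the table). These 6 are among the losses by which the families were chosen. The upstream regions had a median of -30.6 points, against -24.7 points for the 8 within the gene. Without the gain, the 7 losses within the gene had a median of -25.4 points. The median number of CpG cytosines was 4 upstream and 6 within the gene. The upstream regions lay 178 to 1068 kb before the gene start. Going away from the gene, the first hypo-DMR was -32.3 points (chr18:26001566-26001659), 247 kb upstream. It was followed by -31.6 points at 381 kb (chr18:26135293-26135468) and by -31.0 points at 540 kb (chr18:26294948-26295048). These 3 were the only listed regions over that stretch, with gaps of 134 and 159 kb between them. Farther out, 4 regions lay close together over 37.0 kb, between 699 and 736 kb upstream, with -29.1, -25.7, -30.1 and -42.2 points in order away from the gene. The third of these (chr18:26481554-26481604) came from 3 CpG cytosines, all 3 of them DMCs. The last of them (chr18:26490253-26490358) was the largest difference of the set, from 4 CpG cytosines and 3 DMCs. The outermost hypo-DMR, -33.1 points (chr18:26797678-26797747), lay 1043 kb upstream, and a loss of 21.6 points lay beyond it at 1068 kb.

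**Figure D2:**
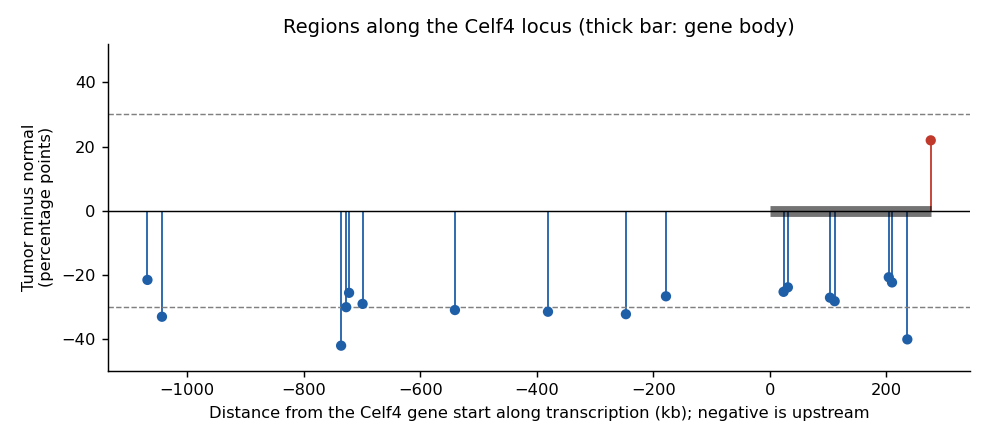
Methylation difference (tumor minus normal, percentage points) of the 18 Celf4 regions against their distance in kb from the gene start along transcription. The thick bar is the gene body, blue is a loss, red is a gain and dashed lines mark 30 points. The 10 upstream regions are all losses and 6 of them pass -30 points, and the only gain sits at the 3′ end of the gene.

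Assignment of the upstream regions to Celf4 rests on the list of transcripts used. With curated RefSeq transcripts only, Celf4 had the nearest start for each of its 18 regions, but with predicted transcripts included this held for 4 of 18. Of the 10 upstream regions, 5 lay in introns of predicted genes, 3 in Gm33228, 1 in Gm41679 and 1 in Gm33621, and 5 were intergenic. If a region inside another annotated gene is given to that gene, 4 hypo-DMRs are left for Celf4 in place of 7. Over the 9 genes together, 46 of the 47 regions kept the member as nearest start under curated transcripts, and 29 did so when predicted ones were included.

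The spacing along Celf4 was uneven. The gaps between neighboring regions ran between 4.70 and 307 kb, with a median of 40.1 kb, and 5 of the 17 gaps were under 10 kb. Of the 7 losses within the gene, 6 lay as 3 pairs with gaps of 5.43, 7.84 and 7.17 kb, and members of a pair differed by under 2 points. The seventh, the loss of 40.2 points, was in no pair, with gaps of 40.1 and 26.1 kb to its neighbors. The gene holds 282 CCGG sites, or 10.2 per 10 kb, against 6.16 per 10 kb of the genome. Most of the spanned stretch lies outside the gene, and the whole 1344 kb holds 615 sites. Counting regions inside the gene body whatever gene they were listed for, Celf4 held 28.4 per 1000 CCGG sites, against 8.70 for the genome. By the same count Rbfox3 held 38.9, Celf3 24.4 from a single region, Rbfox1 13.7, Celf2 10.7 and Rbfox2 8.2, while Celf1, Celf5 and Celf6 held 0, so Celf4 was not the densest. Whether the number of sites that were read differs between these stretches was not tested.

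Rbfox3, which encodes the neuronal nuclear antigen NeuN, had 16 regions, of which 15 were losses and 1 was a gain. They were packed more closely than at Celf4, over 319 kb with a median gap of 7.40 kb. Cut sites were closer together there too, with 369 CCGG sites in this span, against 615 in the 1344 kb of Celf4. Of the 16, 15 lay in introns of the gene, which covers 421.8 kb on the minus strand (chr11:118489760-118911597). Intron 1 held 9 regions, all losses, within 54.6 kb. One of these 9 was the only DMR of the gene, the loss of 37.1 points shown above, from 4 CpG cytosines and 3 DMCs. Its neighbors at 3.50 and 3.67 kb were smaller, with -22.1 and -23.8 points. The other 8 losses of intron 1 lay between -20.4 and -29.0 points.

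Introns 2 and 3 of Rbfox3 held the remaining regions within the gene. In intron 2, 3 losses of -23.7, -20.9 and -29.5 points stood beside the gain of 28.3 points. That gain had 7 DMCs among 10 CpG cytosines, 186 kb from the gene start, with no other listed region within 38 kb. Intron 3 held losses of -21.9 and -23.3 points, with 11 and 18 CpG cytosines. The region upstream of the gene (-26.6 points, chr11:118949336-118949702) lay in an intron of the predicted gene Gm35710. The table measured Rbfox3 regions from 3 different starts of the gene, so regions in the middle of the gene are listed with short distances. The nearest of all 47 regions to a listed TSS was such a one, in intron 2 (-23.7 points, 3.48 kb upstream of the start listed for it).

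Rbfox1, a splicing regulator of neurons and muscle and among the longest genes of the genome, had 5 losses and no DMR. Outside the gene, a loss of 21.1 points (chr16:5597211-5597304) lay 287 kb upstream of the annotated start. Intron 3 held the losses of -29.3 points (chr16:6687012-6687270) and -26.3 points (chr16:6758744-6758867). Both lay inside the gene but before the start from which the table measured them, at 383 and 311 kb. Farther along, a loss of 23.7 points (chr16:7145768-7145882) overlapped an untranslated exon of a shorter transcript, and a loss of 21.6 points (chr16:7352954-7353041) lay in coding exon 12 of 16. The last had 14 CpG cytosines, and the other 4 had 3 to 6. The gene is 1528 kb long, the gaps between its regions had a median of 297 kb, and no pair was within 10 kb.

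Celf2, a broadly active member with roles in splicing and mRNA stability, had 6 losses and no DMR. The loss of 28.3 points shown above overlapped coding exon 5 of 16, and one of 20.2 points (chr2:6730156-6730275) lay 8.71 kb away in an untranslated exon of another transcript. The other 4 were intergenic and upstream of the gene. At 34.9 and 44.4 kb upstream lay losses of -26.5 points (chr2:7431221-7431412) and -28.3 points (chr2:7440748-7440814), and both were mostly repeat sequence (100.0% and 89.6% masked). At 478 and 742 kb lay losses of -23.8 points (chr2:7874319-7874355) and -22.4 points (chr2:8138182-8138357). No other protein-coding gene lies within the 1417 kb that the 6 regions span.

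Celf3, a CELF gene of the nervous system, had 1 region, the gain of 24.3 points shown above, with 6 DMCs among 10 CpG cytosines. It overlapped coding exon 13 of 14 of this short gene (18.5 kb, plus strand) and lay 6.65 kb from the listed TSS. Celf5, also of the nervous system, had 1 loss of 21.3 points (chr10:81458376-81458486), with 1 DMC among 4 CpG cytosines, just beyond the 3′ end of the gene.

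Genes with no listed region were also searched for regions inside their bodies that the table lists for another gene. Rbfox2, the broadly active RBFOX gene, held 1 such region in its last exon, exon 14 of 14, in the 3′ UTR (chr15:77079833-77079909). It was a loss of 31.7 points with 5 DMCs among 6 CpG cytosines, listed for 1700109K24Rik, whose start is nearer. Celf1, the founding member of its family, and Celf6 held none, with 44 and 34 CCGG sites. Since the table lists only regions above a minimum difference, no difference of that size was listed there, and whether their sites were read is not known.

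Regions inside a member but listed for another gene added 13 regions in all, 11 losses and 2 gains, of which 2 were DMRs. Rbfox3 held 6 in intron 4 that were listed for Engase. They were losses of -22.0, -23.8, -27.5, -34.0 and -28.2 points and a gain of 21.9 points, so the gene body as a whole held 21 regions, 19 losses and 2 gains. Rbfox1 held 4 in intron 2 listed for 1700123O21Rik, with -28.1, -26.9, -25.4 and 23.6 points. Of these, the loss of 26.9 points rested on 15 CpG cytosines and 10 DMCs, the most DMCs at that gene. Celf2 held 2 in introns 3 and 4 listed for 5031426D15Rik, with -21.1 and -21.9 points. Engase, 1700123O21Rik, 5031426D15Rik and 1700109K24Rik were named after the values were seen. Counted by gene body, the 9 genes held 43 regions, 38 losses (88.4%) and 5 gains, against 85.1% losses in the table. Of the 43, 4 were DMRs (9.30%), against 23.5% of the table.

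**Figure D3:**
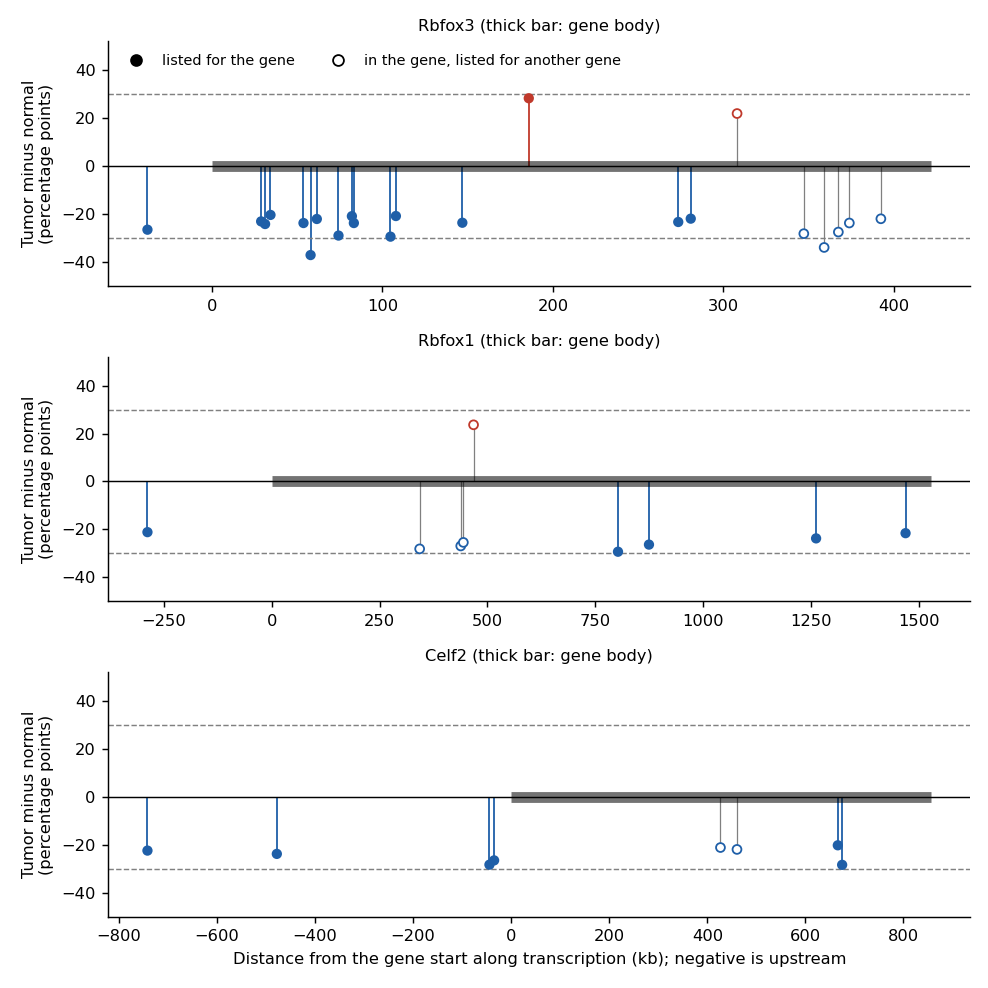
Methylation difference (tumor minus normal, percentage points) along Rbfox3, Rbfox1 and Celf2 against distance in kb from the gene start along transcription, each panel with its own scale. Filled circles are regions listed for the gene, open circles are regions inside it listed for another gene, thick bars are gene bodies and dashed lines mark 30 points. Regions of Rbfox3 crowd into the first part of the gene, those of Rbfox1 and Celf2 are scattered over 1756 and 1417 kb, and only 2 circles, both at Rbfox3, pass -30 points.

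As a set, the regions had a larger median distance to the listed TSS than the table, a difference that was not tested. The median was 122.9 kb in the set, against 47.6 kb in the table, and 59.5 kb without Celf4. By gene it was 262 kb at Celf4, 159 kb at Celf2 and 287 kb at Rbfox1. At Rbfox3, with 16 of the 47 regions, it was 48.7 kb, near that of the table. No member region lay within 2000 bp of a listed TSS, against 876 regions (6.18%) of the table. Other starts of the same genes lay nearer to some regions. The Celf2 loss of 28.3 points (chr2:6721308-6721444) was 0.218 kb from another curated Celf2 start, and the Rbfox3 loss of 29.0 points (chr11:118836859-118837319) was 1.04 kb from a predicted Rbfox3 start, so both lay within 2000 bp of a start of the gene. Introns of any annotated gene held 30 of the 47 regions (63.8%, against 38.4% of the table) and intergenic sequence held 11 (23.4%, against 46.3%). The 30 include 5 upstream Celf4 regions and the upstream Rbfox3 region, which lay in introns of predicted genes and not of a member. The share of losses in the table was higher at larger distances, and beyond 20 kb the shares of the set lay between 94.4 and 100.0%. Between 20 and 100 kb, 18 of 19 member regions were losses (94.7%), against 84.8% in the table. Between 100 and 500 kb the count was 17 of 18 (94.4%), against 95.8%. Beyond 500 kb it was 8 of 8, against 98.6%. DMRs were 4 of these 8 distant regions, against 27.5% of the table beyond 500 kb. All 4 are among the Celf4 losses by which the families were chosen, so this share supports nothing further. Between 20 and 100 kb, 1 of 19 was a DMR (5.26%), against 22.8% of the table.

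**Figure D4:**
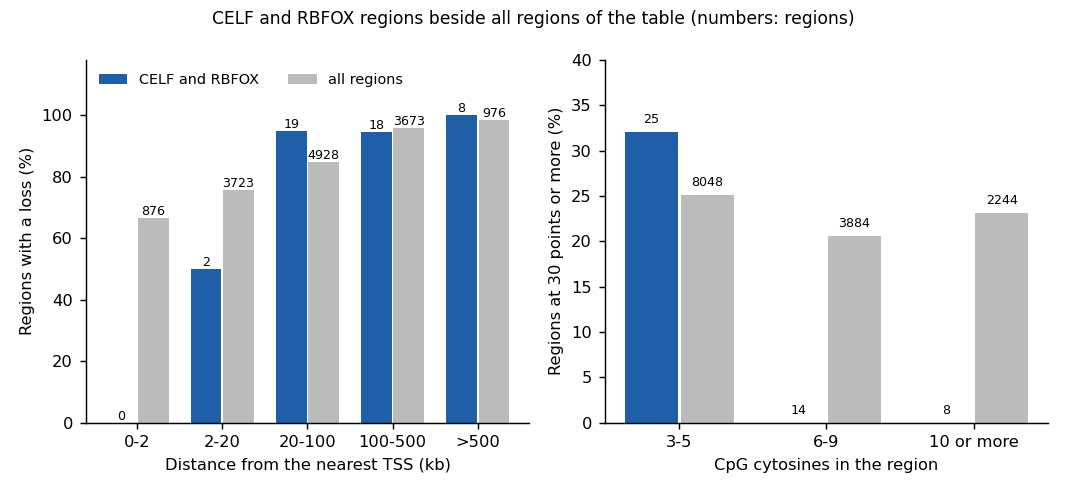
Left, percent of regions with a loss in tumors by distance from the nearest listed TSS in kb, and right, percent of regions at 30 points or more by number of CpG cytosines, for CELF and RBFOX regions (blue) and all regions of the table (gray). Numbers above the bars are regions. Beyond 20 kb at least 84.8% of regions are losses in both groups, and the 22 member regions with 6 CpG cytosines or more include no DMR, against 20.6 and 23.1% of such regions in the table.

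Small numbers of cytosines stood behind all large differences of the set. The 8 DMRs had 3 to 5 CpG cytosines each. In 3 of the 8, all at Celf4, these were 3 cytosines of only 2 CpG dinucleotides. Among member regions with 3 to 5 CpG cytosines, 8 of 25 were DMRs (32.0%), against 25.1% in the table. Of these 8, 7 were the Celf4 losses by which the families were chosen, so this share supports nothing further. Among member regions with 6 or more, 0 of 22 were DMRs, against 21.5%. The 3 gains went the other way, with 10, 10 and 20 CpG cytosines. With 10 cytosines or more, 5 of 8 member regions were losses (62.5%), against 68.9% in the table. In total the 47 regions held 307 CpG cytosines, of which 144 were DMCs (46.9%), against 53.5% in the table.

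Base composition around the regions was close to that of the table. With 500 bp on each side, the median GC content was 47.7%, against 47.3%, and the observed CpG count was 0.212 times that expected from base composition, against 0.248 times. Around the upstream regions of Celf4 the median GC content was 42.1%, around its regions within the gene 47.6%, and around the Rbfox3 regions 52.3%. Repeats made up at least 50% of 8 member regions (17.0%), against 27.3% of the table. A CCGG site overlapped 42 of the 47 regions. Neighboring regions of the same gene had the same direction in 38 of 41 pairs (92.7%), against 92.1% of the 7433 such pairs of the table.

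Other RNA-binding regulators of splicing were counted beside the 2 families. In a list of 27 such genes, 14 had regions in the table and 13 had none. Their 37 regions comprised 36 losses (97.3%, against 85.1% of the table) and 1 gain, and 6 were DMRs (16.2%, against 23.5%). Nova1, which encodes a neuronal splicing regulator, held the most losses, 8, of which 1 was a hypo-DMR. The gain of 32.1 points was at Srrm4, a regulator of neuronal microexons, beside 5 losses. Both shares were near those of the CELF and RBFOX regions. Neither the difference between the lists nor that from the table was tested.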

How the data were processed

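Per the labels and the paper's methods, RRBS reads of 3 liver tumors and 3 normal livers were trimmed with Trim Galore, aligned to mm10 with Bismark, and compared with methylKit and eDMR, and starts were matched with bedtools 2.25.0. No source used here gives the other versions. The deposited table gives, per region and pooled over samples, the authors' mean methylation difference, CpG cytosines, DMCs and nearest TSS. Here 1 was added to starts and TSS positions, after which 100% of starts and ends lay in a CpG of GRCm38. Regions were placed on RefSeq gene models, and distances ran between the near end and the TSS. CpG cytosines of both strands are counted apart. Genes were named by a rule: all 9 members, each region where a member has 12 or fewer and otherwise those of at least 30 points, and non-members only where a member region lies in or beside them or as holders of most regions of a direction in the splicing list. Members and lists were chosen with earlier results of these data known. Measuring steps were tested on simulated data. Python 3.11.15, pandas 2.3.3, numpy 2.4.6, scipy 1.17.1 and matplotlib 3.10.9 were used. Alternatives changed minimum difference, cytosines, DMCs, gene assignment, members and windows. Sequences were read from the RefSeq assembly GRCm38.p6.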

Additional observations from a re-analysis of the deposited data

How the results depend on the processing

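Of 57 alternative values, 36 stayed within the interval of the reported value (within 1.5 times for counts), 21 moved and 0 reversed; 9 were chosen after seeing the data. The number of regions, 47, was 23, 8 and 2 at 25, 30 and 40 points, 29 and 8 with 5 and 10 CpG cytosines or more, and 24 with 3 DMCs or more. The share of losses, 93.6%, was 100.0% at 30 and at 40 points and 62.5% with 10 cytosines or more. The median difference, -23.9 points, was -32.7 at 30 points and -21.8 with 10 cytosines or more. The count of DMRs, 8, was 1 and 0 with 5 and 10 cytosines or more, and 5 with 3 CpG dinucleotides or more (added after seeing the data). The count of Celf4 hypo-DMRs, 7, was 1 and 0 with 5 and 10 cytosines or more and 4 when regions went to the gene holding them. At 30 points the median Celf4 gap, 40.1 kb, was 173 kb, the median TSS distance, 122.9 kb, was 461 kb, and the median GC content, 47.7%, was 45.1%; the regions alone, without flanks, had 54.0%. Reassignment took away Celf4 regions that lie in other annotated genes. With each higher minimum, the counts of regions, DMRs and Celf4 hypo-DMRs could only fall or stay, but how far was not fixed. With 5 cytosines or more, 29 of the 47 regions were left but only 1 of the 8 DMRs, so the large losses rested on few cytosines. The median difference at 30 points shifted by construction. Dropping Celf4 regions under 30 points joined gaps between neighbors into wider ones, which follows from the filter. The causes of the other shifts were not tested. No older symbol of a member was found in the table. No paired analysis was possible because the table has no value per sample, and for the same reason no sample could be left out. Read depth behind each region is not known here.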
